A study of Mus musculus with 3 samples.

Results

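The stretch of mouse chromosome 14 around Ripk3 was described probe by probe, with the question whether Ripk3 and its neighbour Sdr39u1 share their lower signal with the genes around them. The members were all probes, other than controls, that the array files place on chromosome 14 within 250 kb of the single Ripk3 probe (build mm7), without the probes of Rec8, Irf9, Psme1 and Psme2. They were 43 of the 41174 probes on the array, and they stood for 32 genes or unnamed transcripts. The rule left out 7 probes of those 4 genes. Ripk3 and Sdr39u1 were picked because their ratios in this same comparison were among the lowest on the array, so their values are a description and carry no test. The other 41 probes were chosen by position.

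RNA of neural stem cells (NSCs) labelled Dnmt3a-/- (labelled KO below) was hybridised against RNA of NSCs labelled wildtype (labelled WT) on 3 two-colour Agilent arrays, 1 per biological replicate. NSCs are the dividing precursors of neurons and glia. Both genotypes had been derived from embryonic stem cells in the same serum-free medium with EGF and bFGF, and the labels used here give neither strain, clone nor the deleted part of Dnmt3a. The RNA labelled KO carried Cy3 and the RNA labelled WT carried Cy5 on every array, so a bias of a probe toward 1 dye cannot be told apart from genotype. All 3 Dnmt3a probes were higher in the RNA labelled KO, at mean log2 ratios of 0.61, 0.76 and 0.99, which goes against the label. A probe outside the deleted part would check nothing, and that part is not known here. Every direction below is therefore between the 2 labels and would turn if the channels were exchanged. On every array, both RNAs gave signal well above background for all 10 neural stem cell markers. By limma 8 of these 10 were nonetheless lower in the RNA labelled KO and 1 was higher. Of all 18032 genes by their brightest tested probe, 24.8% were lower and 22.0% higher. The summed intensity of the 10 markers was 57000 to 58300 labelled KO against 67700 to 70800 labelled WT. That sum rests mainly on the brightest markers, Vim and Fabp7, at log2 ratios of -0.21 and -0.26. Single markers ranged from -1.19 for Sox9 to 0.24 for Pax6. The part of the 10 markers in the lowered genes below was not tested. Probes well above background made up 63.6% to 65.0% of all probes in the channel labelled KO and 65.5% to 68.8% in the channel labelled WT, and the number of arrays limits the precision.

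Ripk3 encodes a kinase of necroptosis, a form of programmed lytic cell death. Activated Ripk3 phosphorylates Mlkl, which then breaches the plasma membrane, and Casp8 restrains the process. Sdr39u1 encodes a short-chain dehydrogenase of little known function. Dnmt3a places new methyl groups on cytosines followed by guanine (CG sites). In many tissues dense methylation of a promoter goes with a silent gene. DNA methylation was not measured here.

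The probes behind the main results are printed 5′ to 3′ as the array files give them, to show that each of the strongest values rests on 1 or 2 sequences of 60 bases. Ripk3 and Sdr39u1 had 1 probe each in the window, and the probes named Khnyn flank the Sdr39u1 probe.
Adcy4, A_51_P229911, chr14:50636520-50636579 (mm7, minus strand): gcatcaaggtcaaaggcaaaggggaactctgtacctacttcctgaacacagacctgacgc
Ripk3, A_51_P491987, chr14:50652465-50652524 (mm7, minus strand): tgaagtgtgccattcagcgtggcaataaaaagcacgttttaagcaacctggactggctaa
Khnyn, A_52_P641849, chr14:50763276-50763335 (mm7, plus strand): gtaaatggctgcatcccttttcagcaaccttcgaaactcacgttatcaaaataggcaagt
Sdr39u1, A_51_P512541, chr14:50764672-50764731 (mm7, minus strand): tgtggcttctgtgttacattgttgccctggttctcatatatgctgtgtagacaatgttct
Khnyn, A_52_P124320, chr14:50765192-50765251 (mm7, plus strand): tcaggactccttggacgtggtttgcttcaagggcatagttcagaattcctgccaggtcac

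Ripk3 and Sdr39u1 were both more than 5-fold lower in the RNA labelled KO, while the genes measured between them were near 0 or far less lowered. On the log2 scale, Ripk3 in the RNA labelled KO relative to that labelled WT stood at -2.45, -2.51 and -2.48 on arrays 1, 2 and 3, with a mean of -2.48 ± 0.0342 (SD, n = 3), or 5.58-fold lower. Its normalized log2 intensity was 7.51, 7.33 and 7.29 in the channel labelled KO against 9.96, 9.84 and 9.77 in the channel labelled WT. All 3 values labelled KO lay below all 3 labelled WT, and the probe was well above background in both channels on every array. Sdr39u1 was at -2.41, -2.45 and -2.32, with a mean of -2.40 ± 0.0661, or 5.27-fold lower. Its log2 intensity was 8.11, 7.97 and 8.23 labelled KO against 10.5, 10.4 and 10.6 labelled WT, again without overlap and above background throughout. These ranked 6 and 8 from the lowest of 26626 tested probes, which is how the pair was picked. In bulk RNA, fewer cells that express a gene and less of its RNA per cell cannot be told apart. The size of both values depends on the background correction. With normexp, the background model used here, fitted on all spots, Ripk3 was at -1.22 and Sdr39u1 at -1.54. In the scanner's processed signals they were at -3.21 and -2.60. A second probe that the files list under the older name of Sdr39u1 is placed on chromosome 4 and was not well above background on all arrays of either channel, so it bears on neither value.

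**Figure D1:**
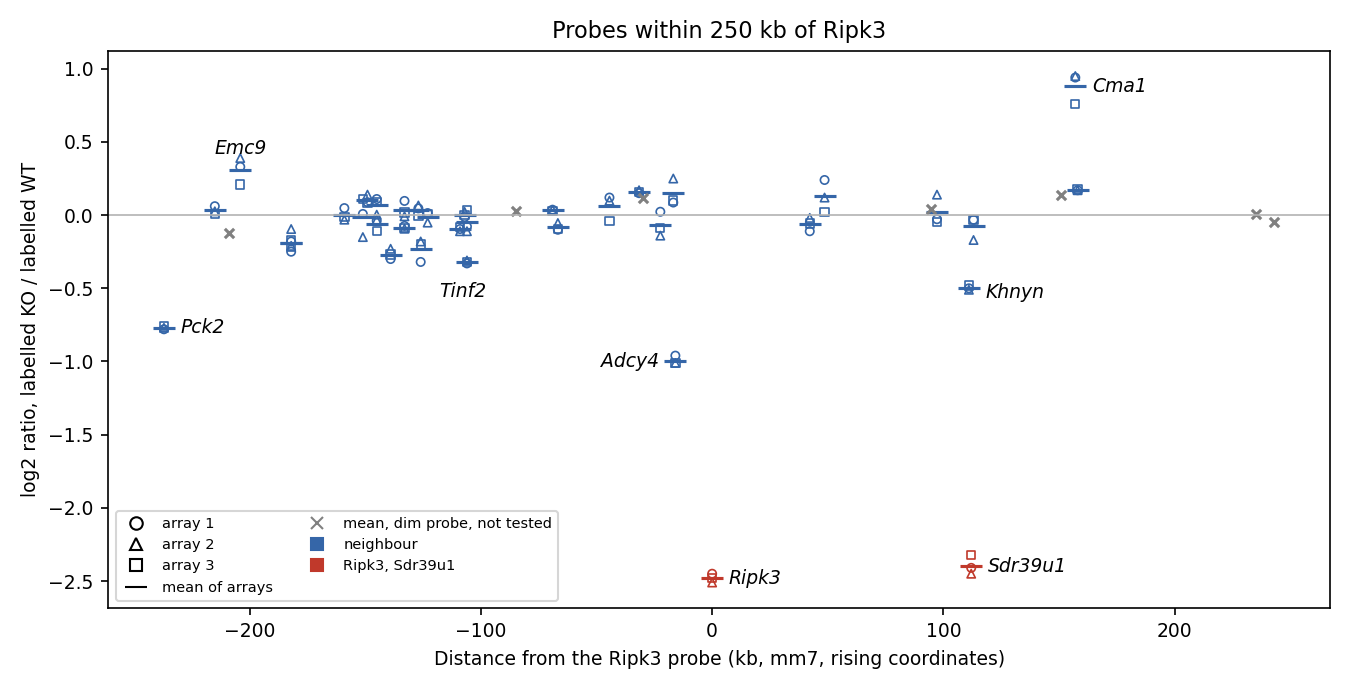
Log2 of the ratio, labelled KO to labelled WT (vertical axis), of each of the 43 member probes against its distance in kb from the Ripk3 probe (horizontal axis). Open symbols are the 3 arrays, bars their mean and crosses the means of dim probes that were not tested. Ripk3 at -2.48 and Sdr39u1 at -2.40 lie 112 kb apart, with Nfatc4, Cbln3 and a Khnyn probe between them at -0.50 or above.

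Between the 2 genes, whose probes lie 112147 bases apart, the RefSeq order (GRCm38.p6) has 4 protein-coding genes: Nfatc4, Nynrin, Cbln3 and Khnyn. Nynrin was not analysed here, and the other 3 had 5 tested or dim probes before the Sdr39u1 probe. Nfatc4, which encodes a calcium-regulated transcription factor, was bright and showed no such drop. Its probes were at -0.062 ± 0.0454 and 0.13 ± 0.109 (SD, n = 3), and neither passed the threshold (limma, adjusted p = 0.19 and 0.051). The channel means of the brighter Nfatc4 probe, 10.4 labelled KO and 10.3 labelled WT, show a level that both RNAs shared. With median centring, where the median of all tested probes moved to -0.22, both were lower and past the threshold, the dimmer at -0.35 and the brighter at -0.30 (adjusted p = 0.012 and 0.015). Without replicate 3 the brighter probe was called higher, at 0.18 (adjusted p = 0.03).

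Cbln3, which encodes a secreted cerebellin, was near the detection limit. One of its probes did not rise above background in either channel, and the other did so only with the RNA labelled KO. That probe was at -0.028, 0.14 and -0.045 on arrays 1, 2 and 3, a mean of 0.021 ± 0.10 with the sign differing between arrays (limma, adjusted p = 0.72). The scanner's processed signals gave 0.98 (adjusted p = 0.0035) and the authors' deposited values 0.99 for the same probe, so its value moved with the background handling.

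Of the 2 probes named Khnyn, an RNA-binding nuclease cofactor of antiviral defence, 1 was lowered and 1 did not pass. The probe 1336 bases before the Sdr39u1 probe fell, at -0.50, -0.51 and -0.48 on the 3 arrays and a mean of -0.50 ± 0.0154 (limma, adjusted p = 1.1e-05), or 1.41-fold lower. It was matched to Khnyn by accession. The other probe, 460 bases beyond the Sdr39u1 probe, was at -0.032, -0.17 and -0.032, a mean of -0.077 ± 0.0776 (adjusted p = 0.15). That probe was matched to Khnyn by symbol only and could not be placed in an exon here, so it may not measure Khnyn. The values of the 2 probes did not overlap. They lie on either side of the Sdr39u1 probe, in the plus orientation, opposite to that of Sdr39u1. The lowered Khnyn probe stood at -0.11 with normexp fitted on all spots and at -0.83 in the scanner's processed signals.

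The closest measured neighbour of Ripk3 was also lower. Adcy4, which encodes an adenylyl cyclase that makes cyclic AMP, has its probe 15885 bases before that of Ripk3 on the same strand, and in the RefSeq order no protein-coding gene lies between them. Its log2 ratio was -0.96, -1.01 and -1.01, with a mean of -1.0 ± 0.0271 (SD, n = 3), or 1.99-fold lower (limma, adjusted p = 2.9e-07). Its log2 intensity was 8.28, 8.18 and 7.98 labelled KO against 9.24, 9.19 and 8.99 labelled WT, with no overlap. The mean was -0.51 (adjusted p = 0.02) under the all-spot normexp fit and -1.33 with median centring. The next genes on that side were not lowered. The leukotriene B4 receptor gene Ltb4r1, 16.8 kb from the Ripk3 probe, was at 0.15 ± 0.087 (limma, adjusted p = 0.021), and that call was lost without replicate 2 (0.095, adjusted p = 0.15) and without replicate 3 (adjusted p = 0.05, not under the threshold). It was also lost under the all-spot normexp fit, in the scanner's processed signals and in the authors' deposited values (adjusted p = 0.057, 0.066 and 0.088), and with median centring the value turned to -0.14. Its paralogue Ltb4r2 was at -0.067 ± 0.0814 (adjusted p = 0.21). Nop9, of ribosome assembly, rose slightly at 0.16 ± 0.011 (adjusted p = 0.0049). The Nop9 call was lost in the scanner's processed signals (0.12, adjusted p = 0.07) and the authors' deposited values (0.11, adjusted p = 0.11), and with median centring the value was -0.21. The dehydrogenase gene Dhrs1 was at 0.062 ± 0.0879 (adjusted p = 0.26). Cideb, of lipid droplets, was not well above background in either channel on any array.

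**Figure D2:**
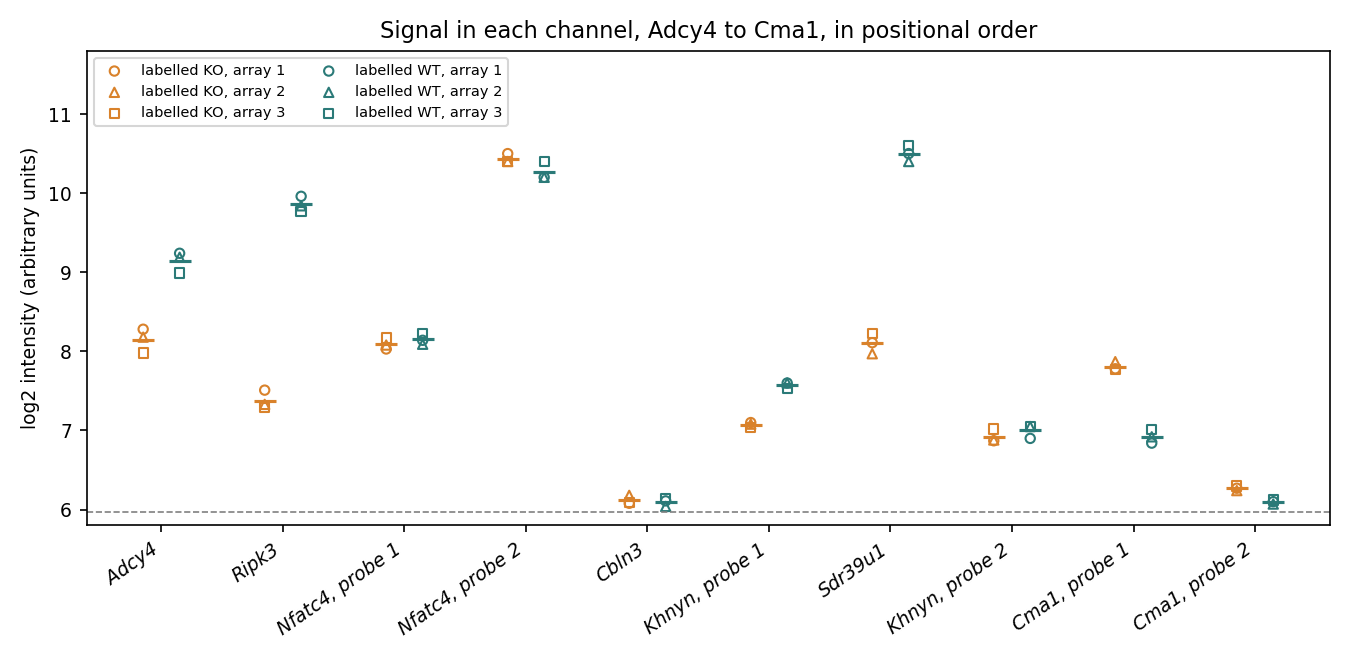
Normalized log2 intensity (vertical axis, arbitrary units) in the channels labelled KO and WT for 10 probes in positional order from Adcy4 to Cma1. Symbols are arrays, bars channel means, and the dashed line the highest over arrays and channels of the lowest signal well above background (5.97). Adcy4, Ripk3, Khnyn probe 1 and Sdr39u1 were lower in the channel labelled KO on every array, and both Cma1 probes were higher.

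On the far side of Sdr39u1, past the probes named Khnyn, Cma1 was the only member gene tested, and it was higher. Cma1, the gene of mast cell chymase, is the next RefSeq protein-coding gene after Sdr39u1. Its brighter probe, 157 kb from the Ripk3 probe, rose at 0.94, 0.95 and 0.76 on arrays 1, 2 and 3, a mean of 0.88 ± 0.105 (SD, n = 3), or 1.84-fold higher (limma, adjusted p = 2.4e-06). Its log2 intensity of 7.78, 7.87 and 7.77 labelled KO lay above 6.84, 6.92 and 7.01 labelled WT. The other Cma1 probe, too dim with the RNA labelled WT to be above background, was at 0.17 ± 0.00619 (adjusted p = 0.0033). The brighter probe ranged from 0.22 with normexp fitted on all spots to 1.48 in the authors' deposited values, and the dimmer one from 0.020 (adjusted p = 0.18) to 1.20 over the same settings. The probes of the unnamed transcript AK076852, 151 kb from Ripk3, and of the mast cell proteases Mcpt1 and Mcpt9 were at background on every array. Of 7 other mast cell markers, Kit, a growth factor receptor gene not restricted to mast cells, was higher at 0.41 (adjusted p = 4.4e-05). Cpa3 and Tpsab1, which define mast cells, stayed at background throughout, and Fcer1a at -0.038, Ms4a2 at 0.025 and Tpsb2 at 0.014 did not pass. Hdc was above background on 2 arrays labelled WT and 0 labelled KO, and was not tested. The summed intensity of the 7 markers was 611 to 635 labelled KO and 559 to 594 labelled WT. That difference lay mainly in Kit, the brightest, at a log2 intensity of 7.47 labelled KO against 7.06 labelled WT. The other markers lay at 6.59 or below in both channels. The part of the 7 markers in the Cma1 value was not tested.

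Among the neighbours that the rule kept, lowered and raised probes were about as common as on the array. Of the 41 neighbour probes, 34 passed the filter on dim probes and 7 did not. Of the 34, 9 were lower (26.5%, against 23.6% of all 26626 tested probes) and 6 were higher (17.6%, against 20.7%), by limma at adjusted p under 0.05. The other 19 did not pass. The 4 genes left out by the rule lie in the same window, and 5 of their 7 tested probes were lower (71.4%) and 0 higher. With them, 14 of 41 tested neighbour probes were lower (34.1%) and 6 higher (14.6%). The median log2 ratio of the 34 was -0.0097, and that of all tested probes -0.011. At least 1.5-fold differences were found for 3 of the 34 (8.82%), against 3.21% of all tested probes, namely Pck2, Adcy4 and Cma1. Of the 34, 0 reached 2-fold, against 0.890% of all tested probes. To the side of lower coordinates 8 of 27 tested neighbour probes were lower and 4 higher, and beyond Ripk3 1 of 7 was lower and 2 were higher. Both of these 2 were Cma1 probes, and the dimmer entered the test only through the channel in which it was high. With a filter on both channels, 9 of 31 neighbour probes were lower and 5 higher, against 23.5% and 21.3% of all tested probes. Within 100 kb of the Ripk3 probe, 1 of 10 tested neighbour probes was lower, that of Adcy4, and 2 were higher.

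These shares rest on the normalization. With each array only centred on its median, 20 of the 34 were lower and 2 higher, against 49.1% and 4.36% of all tested probes. With normexp fitted on all spots, 6 were lower and 3 higher, against 13.8% and 10.1%.

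The other neighbours past the threshold by at least 0.3 on the log2 scale lay 106 kb or more from Ripk3. Pck2, the mitochondrial enzyme that makes phosphoenolpyruvate, was at -0.78, -0.77 and -0.76, a mean of -0.77 ± 0.00788, or 1.71-fold lower (limma, adjusted p = 9.5e-07). It was bright in both channels, at 12 labelled KO and 12.8 labelled WT. Tinf2, a subunit of the shelterin complex at telomeres, was at -0.32 ± 0.0131 by its brighter probe (adjusted p = 0.00013) and at -0.05 ± 0.0778 by a probe too dim with the RNA labelled KO (adjusted p = 0.33). That dim probe was at -0.62 in the scanner's processed signals and -0.63 in the authors' deposited values, past the threshold in both (limma, adjusted p = 0.03 and 0.028). It entered the test only through the channel labelled WT, in which it was high, so it does not support the brighter Tinf2 probe. Emc9, a subunit of a complex that inserts membrane proteins, rose at 0.31 ± 0.0904 (adjusted p = 0.00055), but stood at -0.11 with median centring (adjusted p = 0.36). The remaining calls lower were both probes of Rnf31, 1 of Mdp1 and 2 of unnamed transcripts, at -0.27 to -0.094, and the remaining call higher was 1 probe of Tm9sf1 at 0.10. More than 1 tested probe was available for 10 neighbour genes. For 2 of these, Rnf31 and Cma1, both probes passed in the same direction, for 4 only 1 probe passed, and for 4 neither did. Of the 34 tested neighbour probes, 3 passed the filter through 1 channel only, namely the dim probes of Tinf2, Cbln3 and Cma1. The dimmer Cma1 probe passed only through the channel in which it was high, so it does not support the brighter one.

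At the edges of the window, Pck2 at 237 kb and Mcpt9 at 243 kb were the outermost members inside, and Nrl at 266 kb and Mcpt2 at 258 kb the nearest outside. Nrl and Mcpt9 stayed at background on every array, and Mcpt2 was above it on 1 array in each channel. An edge anywhere from 243 kb to 258 kb would move no called probe in or out. A window narrower than 237 kb would lose Pck2, which was called lower.

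**Figure D3:**
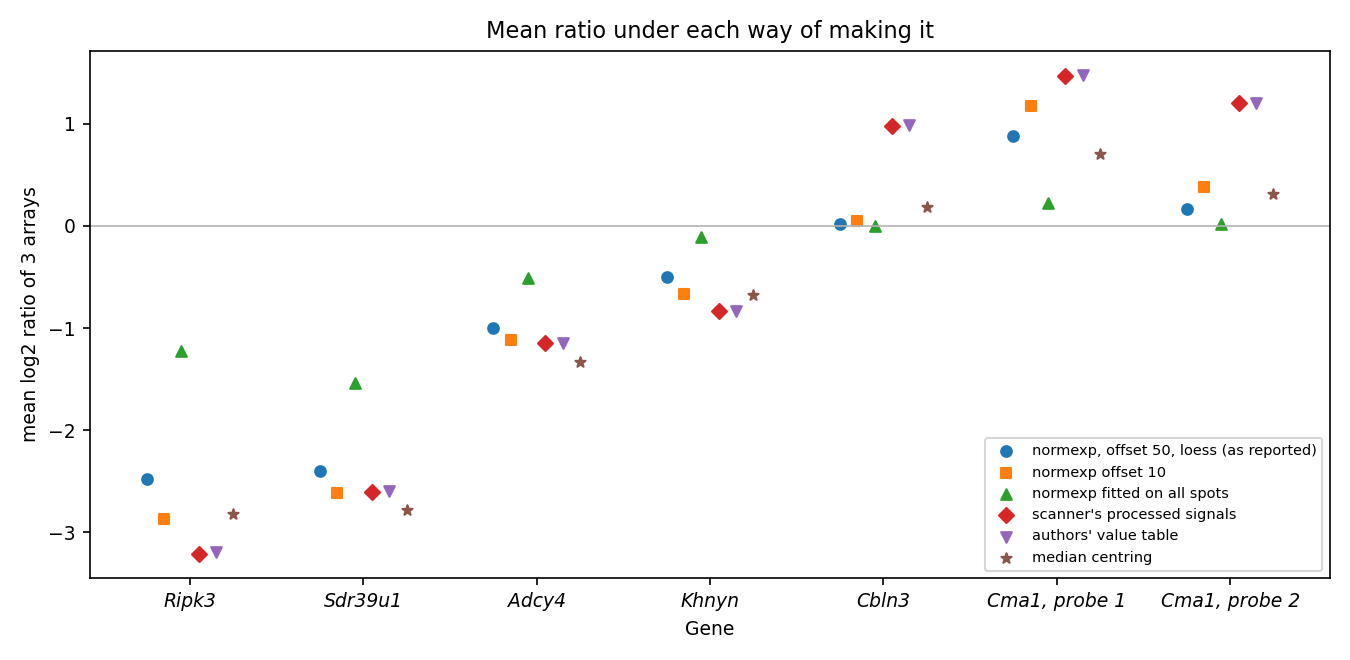
Mean log2 ratio of the 3 arrays (vertical axis) for 7 probes around Ripk3 under 6 ways of making the ratio, with the lowered Khnyn probe shown. Ripk3 ranged from -3.21 to -1.22 and Sdr39u1 from -2.78 to -1.54 over the settings, while the direction held for both, and the Cbln3 probe lay between 0.0011 and 0.99.

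The promoters are printed because the labels name a DNA methyltransferase as the gene deleted and Ripk3, Sdr39u1 and Adcy4 were lower together, with Cma1 higher. The sequences are RefSeq's 250 bases before the gene start (GRCm38.p6), 5′ to 3′ in the direction of the gene, with CG dinucleotides in capitals. Sdr39u1 has 2 listed starts, and the upstream one is shown.
Ripk3, chr14:55788858-55789107, minus strand: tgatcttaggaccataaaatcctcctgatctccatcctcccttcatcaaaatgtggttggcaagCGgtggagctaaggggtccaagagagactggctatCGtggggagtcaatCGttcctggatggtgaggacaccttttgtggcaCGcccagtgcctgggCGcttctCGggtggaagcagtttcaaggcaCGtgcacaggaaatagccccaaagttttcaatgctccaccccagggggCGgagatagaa
Sdr39u1, chr14:55900233-55900482, minus strand: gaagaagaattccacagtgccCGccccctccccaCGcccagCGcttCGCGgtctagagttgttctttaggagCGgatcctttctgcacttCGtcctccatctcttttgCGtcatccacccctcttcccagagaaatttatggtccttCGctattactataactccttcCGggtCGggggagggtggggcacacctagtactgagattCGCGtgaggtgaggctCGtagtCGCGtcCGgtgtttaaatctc
Adcy4, chr14:55784073-55784322, minus strand: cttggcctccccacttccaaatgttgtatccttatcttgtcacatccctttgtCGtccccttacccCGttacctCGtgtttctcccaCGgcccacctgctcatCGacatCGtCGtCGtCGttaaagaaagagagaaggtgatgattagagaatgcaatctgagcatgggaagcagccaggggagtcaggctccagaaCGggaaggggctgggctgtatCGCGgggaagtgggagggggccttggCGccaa
Cma1, chr14:55944676-55944925, minus strand: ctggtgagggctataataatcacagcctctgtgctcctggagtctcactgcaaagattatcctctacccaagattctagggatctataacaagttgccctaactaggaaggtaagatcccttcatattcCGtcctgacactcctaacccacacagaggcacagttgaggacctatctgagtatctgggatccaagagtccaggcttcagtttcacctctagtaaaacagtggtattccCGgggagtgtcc

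The Ripk3 window held 8 CG dinucleotides, and 43.0% of all 32851 promoters in the table held at least as many. Sdr39u1 had 17 and 20 at its 2 starts (23.5% and 17.9% of all promoters held as many), Adcy4 13 (31.5%) and Cma1 2 (81.2%). The raised gene Cma1 had the fewest of these 4 genes. Of the other window genes called by at least 0.3 on the log2 scale, the lowered Pck2, Tinf2 and Khnyn had 6, 20 and 15. The raised Emc9 had 8. A link between CG count and direction was not tested. Of the 32 genes or unnamed transcripts, 27 had an entry, with 33 entries in all, a median of 12 CG dinucleotides and a range of 1 to 38, against a median of 6 over all promoters. Nfatc4, which did not pass the threshold, had 8, as many as Ripk3. The interferon-stimulated response element, searched on both strands, occurred in 2.98% of all promoters and in 1 of the 33 entries, that of Tgm1. The STAT motif TTCNNNGAA occurred in 7.02% of all promoters and in 2 of the 33. Neither motif was found in the windows of Ripk3, Sdr39u1, Adcy4 or Cma1, which says only that these letters are not in these 250 bases. The Sp1 box GGGCGG occurred once in Ripk3 and once at the upstream start of Sdr39u1, and in 32.7% of all promoters. CCAAT, in 33.8% of all promoters, was in none of these 4 genes' windows.

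Among the other genes of necroptosis, the target Mlkl and the restraining protease Casp8 were lower as well. Mlkl, the executioner that Ripk3 phosphorylates, fell at -0.87, -0.96 and -1.0 on arrays 1, 2 and 3, a mean of -0.94 ± 0.0657 (SD, n = 3), or 1.92-fold lower (limma, adjusted p = 6.8e-07). Casp8, the protease that restrains Ripk3, fell at -0.64, -0.87 and -0.81, a mean of -0.77 ± 0.118, or 1.71-fold lower (adjusted p = 7e-06). Under the all-spot normexp fit they were at -0.36 and -0.25 (adjusted p = 0.026 and 0.015). Ripk1, the kinase that binds Ripk3 through a shared interaction motif, was lower by little, at -0.20 ± 0.0798 (adjusted p = 0.0048), and was not past the threshold in the scanner's processed signals (-0.11, adjusted p = 0.17) or the authors' deposited values. Zbp1, a nucleic acid sensor that engages Ripk3, rose above background on 1 of 3 arrays with the RNA labelled WT and on none with the RNA labelled KO, and was not tested.

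Genes of death receptor signalling went both ways. Tradd, which links the TNF receptor to Ripk1, rose at 0.50, 0.48 and 0.48, a mean of 0.49 ± 0.00971 (limma, adjusted p = 1.2e-05). Cflar, which encodes the Casp8 regulator c-FLIP, rose at 0.44, 0.59 and 0.37, a mean of 0.47 ± 0.109 (adjusted p = 9.1e-05). With median centring they stood at 0.036 and -0.027, neither past the threshold (adjusted p = 0.76 and 0.85). Fas, a death receptor, rose at 0.45 ± 0.0604 (limma, adjusted p = 3.8e-05), while Fadd, the adaptor that recruits Casp8, fell at -0.17 ± 0.0247 (adjusted p = 0.0042). Of 27 list genes, 26 were tested by their brightest probe. Of these, 7 were lower (against 24.8% of all 18032 genes by their brightest tested probe) and 7 higher (against 22.0%), and 12 did not pass. Among the lower genes, Tlr3 (-0.14, limma, adjusted p = 0.042) entered the test only through the channel in which it was high. With a filter on both channels, 6 of 25 list genes were lower and 7 higher, against 23.5% and 21.3% of all tested probes. The median of the 26 was -0.045 and that of all genes -0.011. With median centring 18 of the 26 were lower and 0 higher, against 49.1% and 4.36% of all tested probes. The calls of Tradd, Cflar and Fas as higher were thus lost in that setting. In the scanner's processed signals Tradd and Cflar stayed higher, at 0.43 and 0.40 (limma, adjusted p = 0.0036 and 0.012). Rnf31, a ligase of linear ubiquitin chains, belongs to the list and to the window, and was lower at -0.19 ± 0.084 (adjusted p = 0.006).

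**Figure D4:**
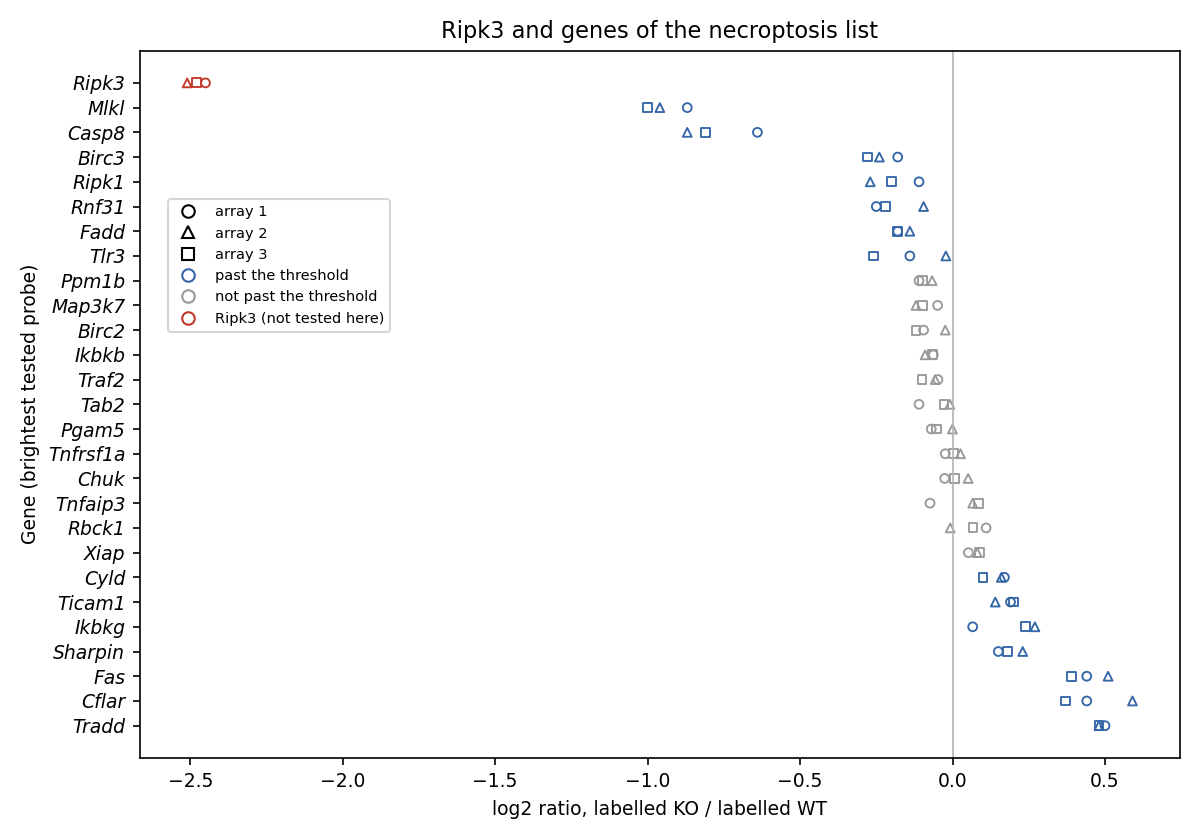
Log2 of the ratio, labelled KO to labelled WT (horizontal axis), on each array for Ripk3 and the 26 tested genes of the necroptosis list (vertical axis), 1 symbol per array. Ripk3 has the lowest mean at -2.48, followed by Mlkl at -0.94 and Casp8 at -0.77, and Tradd the highest at 0.49.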

How the data were processed

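Signals came from 3 two-colour Agilent arrays. The deposited files are output of Feature Extraction 9.5.3.1, per the file headers. In these deposited files spot and background signals are raw intensity values, processed signals are dye-normalized, and the log ratio is log10 of red over green. The authors' deposited value table was read as log2 ratios of labelled KO over labelled WT (r = 0.992 to 0.998 with the scanner's ratio across features), and the sources used here do not state its scaling.

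Background was corrected with limma 3.58.1 (R 4.3.3) by normexp (offset 50), fitted on the spots without outlier marks, and ratios were normalized by loess. Marked spots were left out (170, 173 and 242). The offset draws ratios of dim spots toward 0. Channel intensities were taken after Aquantile. Probes well above background on all 3 arrays of either channel were tested (26626 of 41174) with lmFit and eBayes, two-sided, against 0, with Benjamini-Hochberg adjustment over all of them and a threshold of 0.05. The fit was tested on simulated data. Genes were named through RefSeq accessions (23076 probes) or symbols (9657), and 8441 kept the file's name. The p-values measure only the spread between these samples. Named were Ripk3, Sdr39u1, genes between them or within 50 kb of either, and window genes past the threshold by at least 0.3 on the log2 scale; of the necroptosis list, Ripk1, Mlkl, Zbp1, Casp8 and the 4 largest called ratios; others were named after their values were seen. Members and lists were chosen with earlier results of these data known.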

Additional observations from a re-analysis of the deposited data

How the results depend on the processing

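Leaving out 1 replicate gave 8 lower and 4 to 5 higher of 34 neighbour probes, and 6 to 7 lower and 6 to 7 higher of 26 necroptosis genes. Of all tested probes, 17.3% to 21.7% were then lower and 15.3% to 20% higher. With normexp fitted on all spots, 3 neighbour probes and 4 necroptosis genes were higher, against 10.1% of all tested probes. Median centring moved the median of all tested probes to -0.22. There 20 neighbour probes were lower and 2 higher, and 18 necroptosis genes were lower and 0 higher, against 49.1% and 4.36% of all tested probes. The cause was not tested. Within 100 kb, 1 of 10 tested neighbour probes was lower and 2 were higher. Within 500 kb, 10 of 42 were lower and 10 higher. Among those higher, the dimmer Cma1 probe, Mcpt8 and Gzme entered the test only through the channel in which they were high. The shares of all tested probes beside both windows were 23.6% lower and 20.7% higher. The counts stayed within 1.5 times with offset 10, the scanner's processed signals, the authors' values, no filter on dim probes and a filter on both channels.

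Of 227 values of single named probes under the alternatives, 190 kept direction and call, 10 values of Ripk3 and Sdr39u1 moved beyond their spread between arrays without changing direction, 11 lost and 6 gained a call, and 10 reversed. The reversals with median centring were Emc9 at -0.11, Tinf2 (dim probe) at 0.063, Dhrs1 at -0.24, Nop9 at -0.21, Ltb4r1 at -0.14, Nfatc4 at -0.30 and Cflar at -0.027. Ltb4r2 turned to 0.078 with the scanner's processed signals and 0.072 with the authors' deposited values, and Cbln3 to -0.037 without replicate 2 (0.054 without replicate 3). The test of the ratios within arrays is itself paired by replicate, and no unpaired fit was run. Signal near background limits Cbln3, Cma1 and the dim probes.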

Other observations

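Beyond the window, the side past Cma1 holds more mast cell proteases and the granzymes, serine proteases of mast cell and lymphocyte granules. Between 250 kb and 500 kb from Ripk3, 13 probes of 11 such genes were on the array. Of these, 5 were tested and 8 were too dim, and by limma 3 of the 5 were higher, against 20.7% of all tested probes. Of these 3, Mcpt8 and Gzme entered the test only through the channel in which they were high, so the count is only a description. Mcpt8 was at 0.59, 0.55 and 0.41 on arrays 1, 2 and 3, a mean of 0.51 ± 0.0934, or 1.43-fold higher (limma, adjusted p = 3.6e-05). It was too dim in the channel labelled WT to be above background. Gzme, also too dim in the channel labelled WT, was at 0.25 ± 0.113, or 1.19-fold higher (limma, adjusted p = 0.0028). Neither fold is a lower bound. Above background in both channels, 1 Gzmd probe was at 0.25 ± 0.0476 (adjusted p = 0.00069). Their intensities lay close to the lowest signals above background, and near-identical family members may share signal. Of 7 markers of cytotoxic lymphocytes, 3 stayed at background on every array: Prf1, Klrd1 and Gzma. Cd3e was above background throughout, at -0.069 (limma, adjusted p = 0.14). Klrb1c was lower at -0.13 (adjusted p = 0.03), but entered the test only through the channel in which it was high. Nkg7 and Cd8a rose above background on 2 and 1 arrays labelled WT and 0 labelled KO, and were not tested.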
